A study of Mus musculus with 8 samples.

Results

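Egfr, Met, Jak2, Nck2 and Csf1 encode a pair of growth factor receptors, a kinase that acts directly behind cytokine receptors, an adaptor that binds activated receptors, and a growth factor. They were followed across 4 sorted fractions of HV ES cells. These 5 genes were chosen by name, with earlier results of these data known. Each was read from the probe that the study's list of probes differing among the fractions pairs with its symbol. That list names 1998 of the 42006 distinct probes of the array here, and all 5 member probes were among the 29484 that passed the filter and were tested. The study had drawn the list from these same arrays, so that differences among fractions describe the 5 genes and are not independent evidence for them.

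HV cells are mouse ES cells of strain 129/Ola with a knock-in at the Hex locus, in which a tagged Hex cDNA is followed by an amplifying internal ribosome entry site and the fluorescent protein Venus. V+ and V- cells therefore differ in a reporter of Hex, a homeobox gene expressed in early endoderm. S+ and S- cells differ in SSEA-1, a surface antigen of undifferentiated ES cells. Clones 5.1 and 16.1 were grown for 24 h with LIF on gelatin without feeder cells, dead cells were gated out and the live cells were sorted into the V-S+, V+S+, V-S- or V+S- fraction. Every fraction was thus represented by 2 samples, 1 from each clone, and all 8 samples carried the knock-in and had the same treatment. The labels call the source of all fractions pre-primitive endoderm, whatever the sort. The fraction of each sample was taken from its title and source name, which give all 4 fractions, whereas the shared description names V-S+ in 2 places and leaves out V+S-. RNA was labelled with Cy3 and hybridised with a Cy5-labelled pool of RNA from mouse cell lines, and values below are log2 ratios of Cy3 to Cy5 after background correction and loess. The 0 of this scale is set by the normalization of each array, so that a value of 0 is not equal raw signal in both channels. Ratios of different probes cannot be set against each other, so that levels are compared between samples and not between genes. The clones lay on separate slides, so that clone and slide cannot be told apart.

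EGFR, the receptor of EGF, TGF-alpha, amphiregulin and HB-EGF, and MET, the receptor of hepatocyte growth factor, are tyrosine kinases that dimerise on binding their ligands and phosphorylate their own tails. Adaptors with SH2 domains bind these phosphotyrosines. NCK2 is such an adaptor and links them through its SH3 domains to regulators of the actin cytoskeleton. JAK2 is a kinase held on cytokine receptors that have no kinase of their own, and it phosphorylates STAT factors. CSF1 is the macrophage growth factor, whose receptor is another tyrosine kinase. In ES cell culture LIF acts through JAK kinases and STAT3, whereas FGF signals through receptor tyrosine kinases, Grb2 and the MAP kinases, a route known to favour primitive endoderm (PrEn), the extra-embryonic layer that lines the blastocyst cavity.

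Each gene was measured by a single spot per array that carried a probe of 60 bases. The first 30 bases of each probe, as the scanner files give them, are shown because they define what was measured for each gene.

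Egfr probe: tgattttgtggtgctgtgtggaccaatgag

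Met probe: aagacacccatacctgtatatacatgctcg

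Jak2 probe: cagaacaaagctctgtagccttgtgtctac

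Nck2 probe: cctacaattgaagaaggggtcttgggatcc

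Csf1 probe: aaaggccacaggcagagctatgaatgagaa

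The GC content of the probes was 45.0% for Egfr, Jak2 and Csf1, 43.3% for Nck2 and 38.3% for Met, with a median of 43.3% over all probes of the array. The Egfr, Met and Csf1 probes shared no run of 15 bases with another probe of the array on either strand, and the Jak2 and Nck2 probes shared such a run with 1 other probe each. All 5 spots were well above background in all 16 scanner files, with Cy3 signals from 6.74 times the local background for the dimmest Csf1 spot to 273 times for the brightest Nck2 spot. Over the 16 files the Cy3 signal of the samples varied 7.49-fold for Egfr, 7.33-fold for Jak2, 3.08-fold for Met, 3.04-fold for Csf1 and 2.97-fold for Nck2. The Cy5 signal of the common pool varied between 1.38-fold (Csf1) and 1.51-fold (Jak2). The wider variation was therefore in the channel of the sorted cells for every member.

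The scanner files mark these probes as unmapped, so that no genome position is given for them. Promoters from RefSeq (GRCm38.p6, the 250 bases before the annotated start) were found for all 5 genes and were searched on both strands for the letters of an AP-1 site (TGANTCA), a TEAD site (GGAATG), a STAT site (TTCNNNGAA), a GATA site (AGATAA) and a GC box (GGGCGG). Met held the only AP-1 match, which 6.75% of 32851 promoters hold, and its first base lay 54 bases before the start. The stretch is shown because it is the only match of the first 4 motifs in the 5 promoters, at chr6:17463892-17463921 on the plus strand, with the match in capitals.

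Met promoter: tgttgcccggcTGAGTCAcgggccgggcag

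None of the 5 windows held the TEAD, STAT or GATA letters, which are found in 12.6%, 7.02% and 9.99% of promoters. All 5 held a GC box, with 1 match for Egfr, 2 for Jak2 and Csf1 and 3 for Met and Nck2, against 32.7% of promoters. These matches describe the letters in the windows, and binding was not measured.

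**Figure D1:**
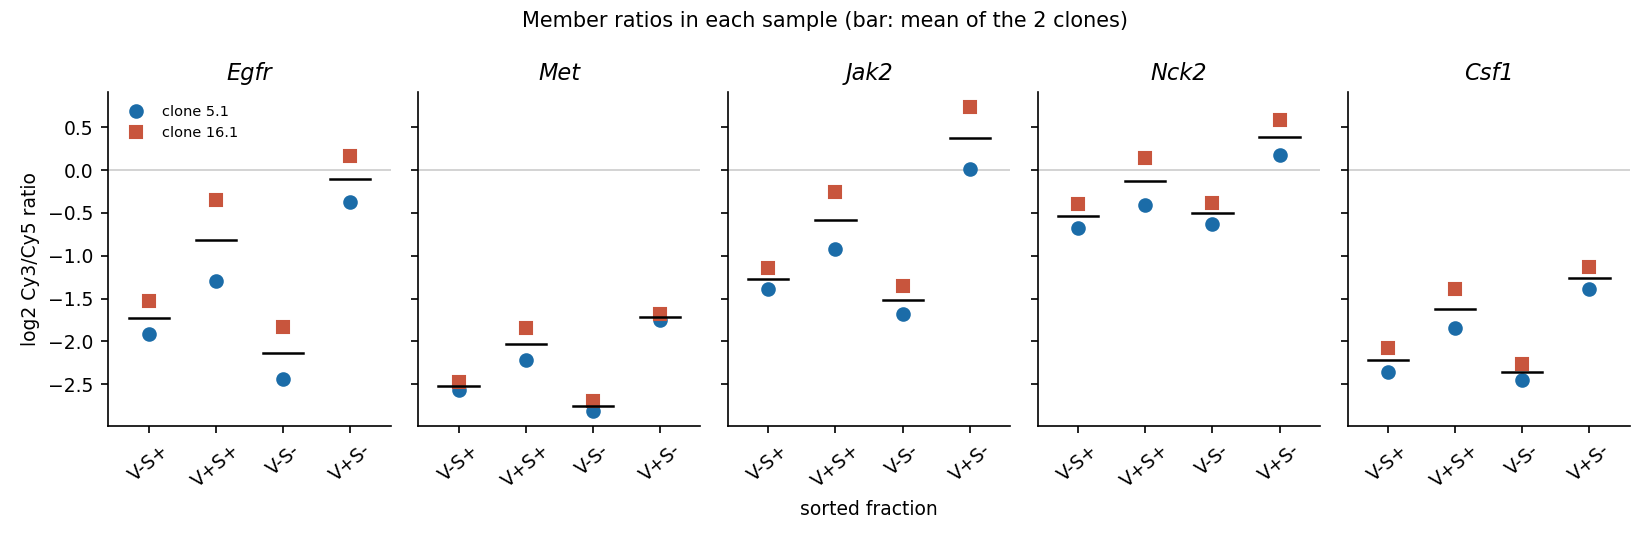
Log2 ratio of Cy3 (sorted cells) to Cy5 (reference pool) of each member in the 4 fractions, with a circle for clone 5.1, a square for clone 16.1 and a bar for the mean of the 2 clones. In every panel V+S- has the highest mean, and the V+S+ samples lie between V-S+ and V+S- within each clone.

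Egfr showed the widest range. Its log2 ratio was -1.92 and -1.53 in V-S+ (clones 5.1 and 16.1 in this order here and below), -1.30 and -0.35 in V+S+, -2.44 and -1.83 in V-S-, and -0.38 and 0.17 in V+S-. All 4 V+ samples were above all 4 V- samples, but V+S+ and V+S- overlapped, since V+S+ of clone 16.1 was above V+S- of clone 5.1. The level in V+S- exceeded that in V-S- by 2.03 (standard error 0.37), which is 4.09-fold, with 2.06 in clone 5.1 and 2.00 in clone 16.1 (adjusted p = 0.0214, limma). This call was lost with the authors' values (adjusted p = 0.0561, limma) and held in 16 of 21 settings. Against V-S+ the difference was 1.62 (standard error 0.37, adjusted p = 0.0362, limma), a 3.08-fold rise. This second call was lost with the signals as the scanner software processed them (adjusted p = 0.0519) and with the authors' values (0.0810), and it held in 12 of 21 settings, which include the fits without single samples.

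Met, the receptor of hepatocyte growth factor, had ratios below 0 in every sample. Its log2 ratio was -2.57 and -2.48 in V-S+, -2.22 and -1.84 in V+S+, -2.81 and -2.70 in V-S-, and -1.75 and -1.68 in V+S-. Both V+S- samples were above the other 6, and the clones lay within 0.12 of each other in V-S+, V-S- and V+S- but 0.38 apart in V+S+. V+S- was higher than V-S- by 1.04 (standard error 0.13, adjusted p = 0.0123, limma), or 2.06-fold, and higher than V-S+ by 0.81 (standard error 0.13, adjusted p = 0.0182, limma). The standard errors of Met were the smallest of the 5 members in these comparisons. With the authors' values the call against V-S+ was lost (adjusted p = 0.0553, limma).

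Jak2, the cytokine receptor kinase, rose in V+S- as well. The log2 ratios were -1.39 and -1.14 in V-S+, -0.92 and -0.26 in V+S+, -1.68 and -1.35 in V-S-, and 0.01 and 0.74 in V+S-. The V+S- samples did not overlap with any other sample, and V+S+ did not overlap with either V- fraction. Relative to V-S-, Jak2 rose 3.70-fold in V+S-, a log2 difference of 1.89 (standard error 0.30, adjusted p = 0.0174, limma). Against V-S+ it was 1.64 (standard error 0.30, adjusted p = 0.0241, limma), or 3.12-fold. With the authors' values both calls were lost (adjusted p = 0.0509 and 0.0596, limma). They held in 16 and 14 of the 21 settings.

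Nck2, the adaptor, moved over a smaller range. Its log2 ratio was -0.67 and -0.39 in V-S+, -0.40 and 0.14 in V+S+, -0.63 and -0.38 in V-S-, and 0.18 and 0.59 in V+S-. Both V+S- samples were above all others, whereas V+S+ of clone 5.1 lay below the V- samples of clone 16.1. V+S- was higher than V-S- by 0.89 (standard error 0.23, adjusted p = 0.0437, limma), or 1.85-fold, and higher than V-S+ by 0.91 (standard error 0.23, adjusted p = 0.0430, limma). These adjusted p-values were the closest to the threshold among the members. The call against V-S- was lost with the signals as the scanner software processed them (adjusted p = 0.0622, limma), without the filter on dim probes (0.0512) and with the authors' values (0.0942). That against V-S+ was lost with the processed signals (0.0626), with median centring (0.0608) and with the authors' values (0.0954). Each held in 11 of the 21 settings.

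Csf1, the only ligand among the 5, also had ratios below 0 in every sample. The log2 ratios were -2.35 and -2.08 in V-S+, -1.85 and -1.39 in V+S+, -2.46 and -2.27 in V-S-, and -1.39 and -1.13 in V+S-. All V+ samples were above all V- samples, and V+S+ of clone 16.1 reached V+S- of clone 5.1. V+S- was higher than V-S- by 1.10 (standard error 0.18, adjusted p = 0.0188, limma), or 2.14-fold, and higher than V-S+ by 0.95 (standard error 0.18, adjusted p = 0.0260, limma). With the authors' values both calls were lost (adjusted p = 0.0535 and 0.0640, limma). They held in 16 and 13 of the 21 settings.

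All 5 members were thus called higher in V+S- against V-S-, a call being an adjusted p below 0.05 with a difference over 1.5-fold. Of all tested probes 6.29% were called higher in this comparison and 1.49% lower. Among the 1998 probes of the study's list the share was 53.1%, which is the nearer background for genes taken from that list. Against V-S+ all 5 passed as well, where 5.73% of all probes and 48.1% of the listed ones did. With clone as a block, which takes the gap between clones out of the error, all 5 passed in both comparisons, where the shares of all probes called higher were 8.96% against V-S- (with 3.32% lower) and 8.87% against V-S+. Among the listed probes these shares were 56.0% and 54.9%. The median difference of the 5 was 1.10 against V-S- and 0.95 against V-S+, beside 0.01 and 0.01 over all probes tested and 0.69 and 0.67 over the listed ones. Both V+S- samples lay above all 6 others for Met, Jak2 and Nck2, as for 14.8% of all probes and 36.8% of the listed ones. All V+ samples lay above all V- samples for Egfr, Met, Jak2 and Csf1, as for 16.7% and 50.8%. Both comparisons use the same V+S- samples and are not independent of each other. RNA from all cells of a fraction was measured together, so that more cells with the transcript and more transcript per cell cannot be told apart.

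The calls of the members, and those of the whole array, changed when single samples were left out. Such a fit, run without the block only, leaves a single sample in its fraction and fewer samples to estimate the spread. A lost call therefore need not come from the values of the sample left out. When any of 3 samples (V-S- of either clone, or V+S- of clone 16.1) was left out, limma called none of the 5 in V+S- against V-S- and 0 of the 29484 probes tested, compared with 2296 probes when all samples were used. At an unadjusted p below 0.05 there were 6645 to 7986 probes. All 5 members were among these in each of the 3 fits, with log2 differences between 0.68 and 2.33. Against V-S+ none was called after leaving out V-S+ of either clone or V+S- of clone 16.1, where limma called 0 to 2 probes of the array, compared with 2066 with all samples, and 6842 to 7586 had an unadjusted p below 0.05, again with all 5 members. Of the members only Met was called there after leaving out V-S- of either clone (960 probes of the array), and only Jak2 after leaving out V+S- of clone 5.1 (1195 probes).

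**Figure D2:**
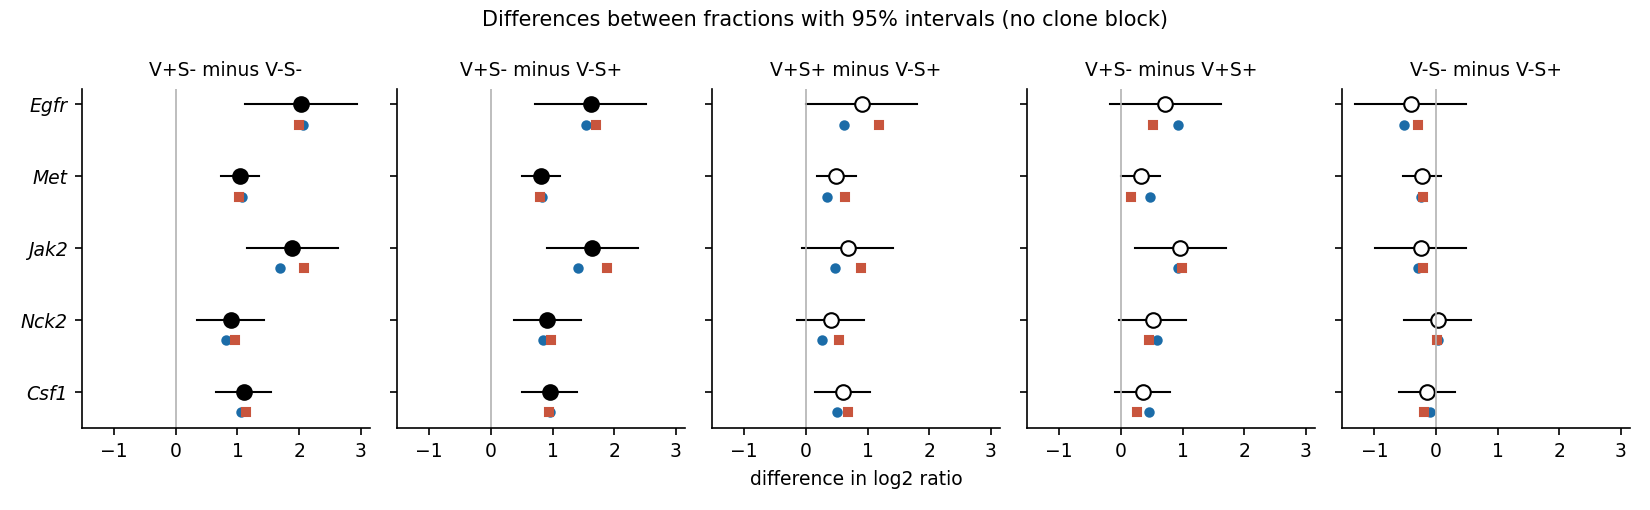
Difference in log2 ratio between pairs of fractions for each member (large circles, filled where called at FDR 0.05 and over 1.5-fold without a block for clone), with 95% intervals as lines, and the difference within clone 5.1 (small circles) and clone 16.1 (small squares) under each. All 5 are called in both comparisons of V+S- with a V- fraction, and none in the other 3.

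Within the S+ cells the question is whether Venus alone marks a difference. V+S+ exceeded V-S+ in either clone for all 5 members, but none was called (limma, 0% of all probes called higher, 5512 at an unadjusted p below 0.05). At least 20.1% of all probes and 51.0% of the listed ones shared this rise in both clones. These shares held the order V+S- over V+S+ over V-S+. The differences were 0.90 for Egfr (95% interval 0.00 to 1.80, adjusted p = 0.266, limma), 0.68 for Jak2 (-0.06 to 1.42), 0.60 for Csf1 (0.15 to 1.04), 0.49 for Met (0.18 to 0.81) and 0.40 for Nck2 (-0.15 to 0.95). With clone as a block Egfr (adjusted p = 0.00618), Csf1 (0.00527) and Jak2 (0.0133) were called, where 3.87% of all probes and 25.5% of the listed ones were called higher. Met and Nck2 also passed the FDR with the block (adjusted p = 0.0125 and 0.0189) but stayed under 1.5-fold. The size of the rise differed between the clones. For Egfr it was 0.62 in clone 5.1 and 1.19 in clone 16.1, and for Jak2 0.47 and 0.89. The values depended on single samples, mostly on those of V+S+. Without V+S+ of clone 5.1 the differences were 1.38 for Egfr, 1.01 for Jak2, 0.83 for Csf1, 0.69 for Met and 0.67 for Nck2, and without V+S+ of clone 16.1 they were 0.43, 0.35, 0.37, 0.30 and 0.13. Without V-S+ of clone 5.1 that of Nck2 was 0.26. Each of these fits sets a sample of a single clone against the mean of both, so that the gap between clones enters the value.

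V+S- was above V+S+ in both clones for all 5 genes as well, and none was called (limma, 0% of all probes, 4428 at an unadjusted p below 0.05). The difference was 0.96 for Jak2 (95% interval 0.23 to 1.70), 0.72 for Egfr (-0.18 to 1.62), 0.51 for Nck2 (-0.03 to 1.06), 0.36 for Csf1 (-0.09 to 0.80) and 0.32 for Met (0.01 to 0.63). With clone as a block Jak2 (adjusted p = 0.0101) and Egfr (0.0202) were called, beside 1.75% of all probes and 17.0% of the listed ones. These values too moved with single samples, and the gap between clones enters those fits in the same way. Without V+S+ of clone 5.1 they were 0.63 for Jak2, 0.24 for Egfr, 0.24 for Nck2, 0.12 for Csf1 and 0.13 for Met, and without V+S+ of clone 16.1 they were 1.29, 1.19, 0.79, 0.59 and 0.51. Without V+S- of clone 16.1 they were 0.60, 0.45, 0.31, 0.23 and 0.28. The order V+S- over V+S+ over V-S+ held in both clones for all 5 members, as for 20.1% of all probes and 51.0% of the listed ones. At least these shares thus rose at each of its steps in both clones. For the members neither step passed the test without the block.

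Among V- cells the loss of SSEA-1 went with no called difference. V-S- minus V-S+ was -0.41 for Egfr (95% interval -1.31 to 0.49), -0.25 for Jak2 (-0.98 to 0.49), -0.23 for Met (-0.54 to 0.08) and -0.15 for Csf1 (-0.59 to 0.30), each lower in both clones. For Nck2 it was 0.03 (-0.52 to 0.57), with 0.04 in clone 5.1 and 0.01 in clone 16.1. Its sign turned with median centring in place of loess (-0.19). Limma called no probe of the array here with or without the block, and 832 had an unadjusted p below 0.05 without it. Leaving out V-S+ or V-S- of either clone gave between -0.71 and -0.10 for Egfr, -0.41 and -0.08 for Jak2, -0.29 and -0.17 for Met, -0.28 and -0.0084 for Csf1, and -0.11 and 0.17 for Nck2. The gap between clones enters these fits too. Median centring, which moved the median of all probes to -0.12, gave -0.60, -0.43, -0.42 and -0.32 for the first 4. These intervals do not exclude differences of up to 1.31 on the log2 scale for Egfr.

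The rise with Venus could be larger in S- than in S+ cells. The interaction, the Venus difference among S- cells less that among S+ cells, was 1.21 for Jak2 (95% interval 0.17 to 2.25), 1.13 for Egfr (-0.15 to 2.40), 0.55 for Met (0.11 to 0.99), 0.50 for Csf1 (-0.13 to 1.13) and 0.49 for Nck2 (-0.28 to 1.26). It was above 0 in both clones for every member, and none passed an FDR of 0.05 (limma, 0% of all probes, 2337 at an unadjusted p below 0.05). The share of probes above 0 in both clones was not counted. The median interaction was 0.01 over all probes tested and 0.22 over the listed ones. Median centring gave 0.84 for Met, 0.77 for Csf1 and 0.79 for Nck2, with no member called and 6295 probes at an unadjusted p below 0.05 in limma. Without V+S+ of clone 5.1 the values were 0.88 for Jak2, 0.65 for Egfr, 0.36 for Met, 0.27 for Csf1 and 0.22 for Nck2, and without V+S- of clone 16.1 that of Nck2 was 0.28. The gap between clones enters these fits too. Other settings raised the interaction, up to 1.60 for Egfr and 1.57 for Jak2. With clone as a block Jak2 (adjusted p = 0.0438) and Egfr (0.0484) passed, where 0.899% of all probes and 8.51% of the listed ones did. Testing for a difference anywhere among the fractions, Met, Csf1 and Jak2 passed an FDR of 0.05 (limma, 7.36% of all probes and 45.5% of the listed ones), Egfr (adjusted p = 0.0561) and Nck2 (0.0964) did not, and all 5 passed with the block, where 43.5% of all probes and 99.4% of the listed ones did. Without the block none passed when any V-S+, V-S- or V+S- sample was left out, nor did any probe of the array, with 6223 to 8310 probes at an unadjusted p below 0.05 in limma, and all 5 passed when V+S+ of clone 5.1 was. The study chose the listed probes by a test of this kind.

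**Figure D3:**
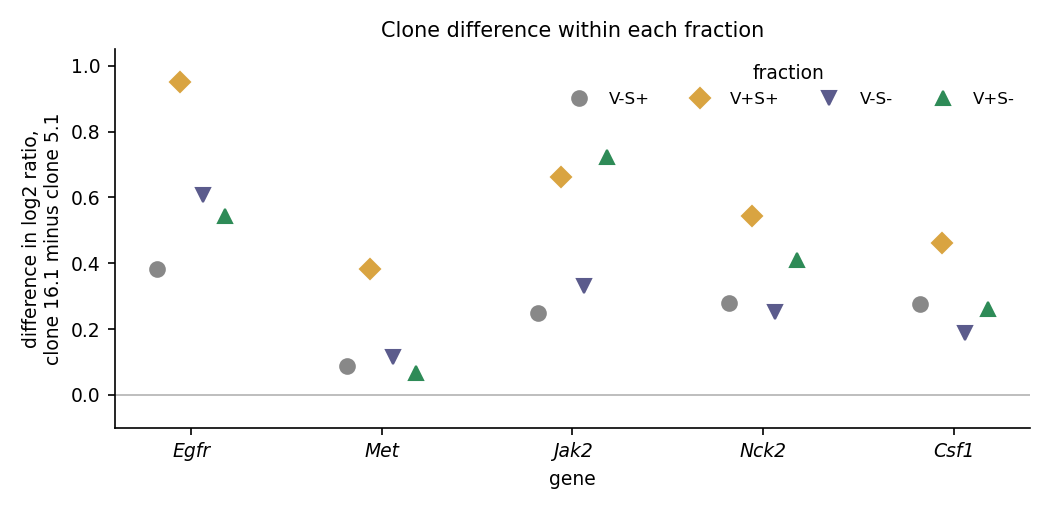
Difference in log2 ratio between clone 16.1 and clone 5.1 for each member within each fraction, 1 symbol per fraction. All values are above 0, and V+S+ (diamonds) gives the widest gap for Egfr, Met, Nck2 and Csf1, whereas for Jak2 V+S- does.

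Clone 16.1 was above clone 5.1 in all 4 fractions for all 5 genes, a pattern that 27.7% of all tested probes and 46.9% of the listed ones shared. With fraction in the model the difference was 0.62 for Egfr (standard error 0.09, adjusted p = 0.00517, limma), the only member over 1.5-fold, where 1.39% of all probes were called higher in clone 16.1. That call was lost after leaving out V+S+ of either clone (log2 difference 0.51, adjusted p = 0.00975), since the change then fell below 1.5-fold. Jak2 (0.49), Nck2 (0.37) and Csf1 (0.30) passed the FDR at a smaller change, and Met (0.16, adjusted p = 0.0958, limma) did not. The share of all probes that passed the FDR alone was not counted, so that these passes are not shown to be particular to the members. The gap between clones was between 0.38 (Met) and 0.95 (Egfr) in V+S+, and between 0.09 (Met) and 0.38 (Egfr) in V-S+.

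The V+S+ samples of the clones also stood at different points between V-S+ and V+S-. On the log2 scale V+S+ of clone 5.1 lay at 40.3% of the way from V-S+ to V+S- for Egfr, 42.0% for Met, 33.7% for Jak2, 31.5% for Nck2 and 52.4% for Csf1. In clone 16.1 the points were 69.7%, 80.0%, 47.2%, 54.4% and 73.0% in the same order. All 5 were further along in clone 16.1, and with 1 sample for each clone and fraction this was not tested. The share of other probes with the same shift was not counted, so that it is not shown to be particular to the members. Marker levels also differed between these samples. The summed ratio of 9 PrEn markers was 9.11 in V+S+ of clone 5.1 and 13.2 in V+S+ of clone 16.1, that of 11 markers of fibroblasts and mesenchyme was 3.17 and 5.37, and that of 8 markers of undifferentiated ES cells was 20.1 and 15.1. Their part in the difference was not tested.

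The sorted fractions were checked against markers that could be named. PrEn markers, among them Gata6, Sox7 and Dab2, had summed ratios of 6.07 to 6.67 in V-S+, 5.20 to 5.96 in V-S-, 9.11 to 13.2 in V+S+ and 14.1 to 16.1 in V+S-, and 8 of the 9 that could be named, of 21, had a called rise from V-S- to V+S-. The 8 named of 17 markers of undifferentiated ES cells, among them Nanog and Dppa3, had sums of 21.6 to 23.6 in the V- fractions and 11.6 to 13.6 in V+S-, and 3 were called lower. Markers of fibroblasts and mesenchyme moved with the members too. All 11 named of 17, such as Postn, Col1a2 and Acta2, had a called rise from V-S- to V+S-, with sums of 1.95 to 2.40 in V-S-, 2.19 to 3.02 in V-S+, 3.17 to 5.37 in V+S+ and 5.56 to 7.70 in V+S-. Of 4 trophoblast markers Gata3, Krt7 and Plac1 were called higher, whereas Tcfap2c was lower by a log2 difference of -1.02 (adjusted p = 0.0503, limma) and was called only with the block. The sums of these 4 were 5.92 to 6.52 in V-S-, 6.63 to 6.67 in V-S+, 5.72 to 6.52 in V+S+ and 6.30 to 8.30 in V+S-, so that V+S- of clone 16.1 was below both V-S+ samples. Of 5 neuroectoderm markers 1 was higher and 2 were lower, the 1 mesoderm marker was not called, and no macrophage marker could be named. Every named marker had been selected by the study for differing among these fractions. The part that other cell types had in the members' values was not tested. No probe could be named for Hex itself.

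Other genes of the same pathways were taken from lists, also chosen with earlier results of these data known. The genes in them that the study's list names could be measured. All of these were therefore preselected, and their counts are read against the 53.1% of listed probes called higher and 13.2% called lower between V+S- and V-S-. Of 21 genes of the EGFR family axis 6 could be named, and all 6 rose in V+S- against V-S-, with a median difference of 0.88. They included 3 ligands of EGFR. Amphiregulin (Areg) rose by 0.93 (adjusted p = 0.0251, limma), Hbegf by 0.77 and Tgfa by 0.59. The ligand of the related receptors ERBB3 and ERBB4, Nrg1, rose by 0.84. The largest change was that of Errfi1, an inhibitor of EGFR that is itself induced by its signal, with 1.30 (adjusted p = 0.00833, limma). Its log2 ratios in V+S-, -0.57 and -0.60, were above all others, the next being -0.96 in V+S+ of clone 16.1. Erbb2ip, a scaffold that binds ERBB2, rose by 1.17. Against V-S+ the calls were 4 of 6, since Hbegf (0.54) stayed under 1.5-fold and Nrg1 (0.68, adjusted p = 0.0647, limma) missed the FDR. With the block 5 of 6 were called.

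**Figure D4:**
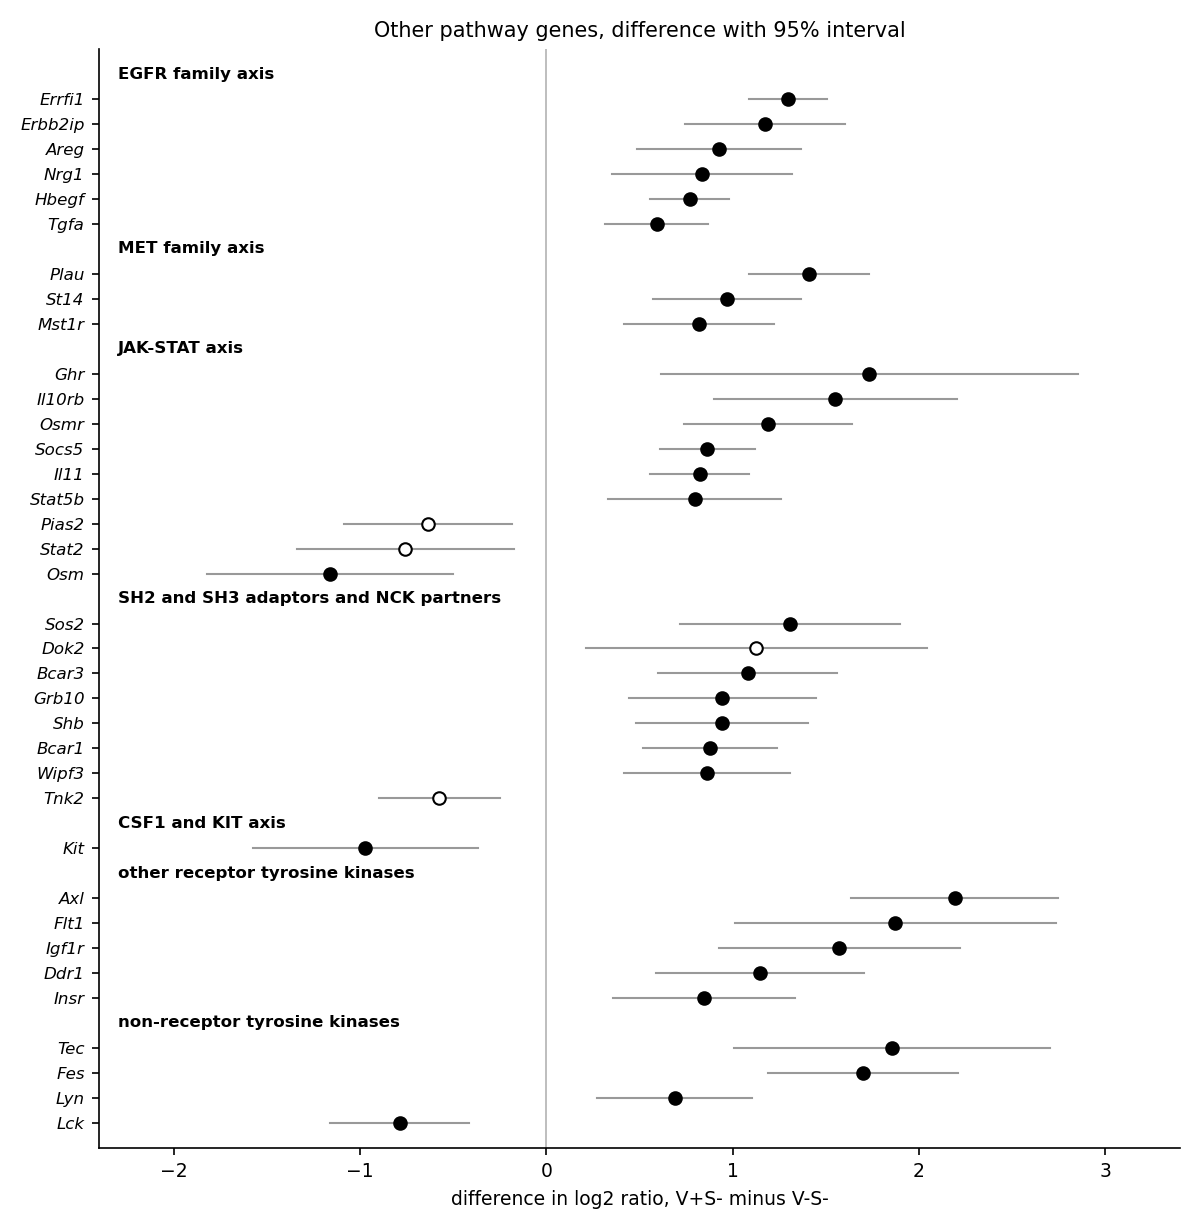
Difference in log2 ratio between V+S- and V-S- (points, filled where called at FDR 0.05 and over 1.5-fold without a block for clone) with 95% intervals for the 36 genes of the pathway lists that could be named, grouped by list. Most points lie above 0, and Osm, Kit and Lck are the genes called lower.

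All 3 named of 11 genes of the MET family axis rose in V+S- against V-S-, with a median of 0.97. Plau, the urokinase that can cleave the precursor of hepatocyte growth factor, rose by 1.41 (adjusted p = 0.00977, limma). St14, another protease that acts on this precursor, rose by 0.97, and Mst1r, the MET relative RON, by 0.82. No ligand of MET or RON could be named.

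Of 39 genes of the JAK-STAT axis 9 could be named, 6 of which rose and 1 of which fell in V+S- against V-S-, with a median of 0.82. The growth hormone receptor Ghr, which signals through JAK2, rose by 1.73 (adjusted p = 0.0488, limma), the cytokine receptor chain Il10rb by 1.55 and the oncostatin M receptor Osmr by 1.19. Socs5, Il11 and Stat5b also rose. Against V-S+ the difference of Ghr, 1.71, was called only with the block (adjusted p = 0.0525 without it, limma). Ghr was at -3.62 and -3.17 in V-S+ and at -2.37 and -1.35 in V+S+, close to its -2.11 and -1.26 in V+S-. With clone as a block the Ghr difference between V+S+ and V-S+ (1.53) was called, and that between V+S- and V+S+ (0.18) was not. Osm, the ligand of Osmr, moved the other way, with log2 ratios of 0.08 and 0.53 in V-S- and -0.74 and -0.98 in V+S-, a fall of 1.16 (adjusted p = 0.0362, limma) and thus opposite in direction to its receptor. Stat2 (-0.76) and Pias2 (-0.64) were not called, but were with the block.

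Of 25 adaptors and partners of NCK 8 could be named, and 6 rose in V+S- against V-S-, with a median of 0.94. Sos2, an exchange factor for RAS that is recruited by adaptors, rose by 1.31 (adjusted p = 0.0220, limma) and Bcar3 by 1.08. Dok2, a docking protein, was higher by 1.13 and was not called (adjusted p = 0.0835, limma), but was with the block. Its log2 ratios were 1.45 and 2.26 in V+S+ and 1.29 and 1.90 in V+S-, and V+S+ was the higher of the pair in both clones. Grb10, Shb, Bcar1 and Wipf3 also rose, and Tnk2 (-0.57) stayed under 1.5-fold.

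Of the 8 genes of the CSF1 and KIT axis only Kit, the receptor of stem cell factor and a relative of the CSF1 receptor, could be named. Its log2 ratio was 1.77 and 1.96 in V-S+, 1.19 and 0.42 in V+S+, 1.79 and 2.02 in V-S-, and 1.07 and 0.80 in V+S-. All V+ samples were below all V- samples, the reverse of Csf1. Kit fell by 0.97 in V+S- against V-S- (adjusted p = 0.0445, limma). Against V-S+ the difference was -0.93 and was not called (adjusted p = 0.0514, limma), but was with the block. The CSF1 receptor could not be named, so that the receptor side of Csf1 was not analysed here.

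Among 42 other receptor tyrosine kinases 5 could be named, and all 5 rose in V+S- against V-S-, with a median of 1.57. Axl, a receptor of the growth arrest factor GAS6, showed the largest difference of all list genes, with 2.19 (adjusted p = 0.0107, limma). Its log2 ratios in V+S- were -1.69 and -1.40, above all other samples, which lay between -3.82 and -2.45. Flt1, a VEGF receptor, rose by 1.87 and Igf1r by 1.57, and Ddr1 and Insr rose as well. Against V-S+ only Axl, Igf1r and Ddr1 were called, whereas Flt1 (1.26, adjusted p = 0.0580, limma) and Insr (0.69, adjusted p = 0.0643, limma) were not without the block. Of 24 non-receptor tyrosine kinases 4 could be named. Tec rose by 1.86 (adjusted p = 0.0229, limma), Fes by 1.70 and Lyn by 0.69, whereas Lck fell by 0.79 (adjusted p = 0.0250, limma).

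In V+S- against V-S+ those higher were 4 of 6 for the EGFR family axis, 3 of 3 for the MET family axis, 5 of 9 for JAK-STAT, 5 of 8 for the adaptors, 3 of 5 for the other receptor kinases and 3 of 4 for the non-receptor kinases, and 1 gene each of JAK-STAT, the adaptors and the non-receptor kinases was lower. The shares of listed probes were 48.1% higher and 11.6% lower there, and 1.28% of all probes were lower (3.02% with the block). In V+S+ against V-S+ no gene of these lists was called without the block. With it the numbers higher were 1, 1, 2, 7, 4 and 3 in the same order, and 3 JAK-STAT genes and Kit were lower. The shares with the block were 25.5% higher and 8.76% lower among listed probes, and 3.87% and 1.75% among all probes.

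The members ran closely together over the 8 samples. Pearson's r between pairs of members lay between 0.917 (Met and Nck2) and 0.993 (Egfr and Csf1). These are descriptions over samples that share clone and slide, and the genes were preselected for differing among the fractions. Among the other 1993 listed probes the profile of Egfr was most like that of Sos2 (r = 0.998), followed by Sox11 and Scarf2. The nearest to Met was Zfp467 (0.998), followed by 2310030G06Rik and LOC100043424. Jak2 was nearest to Cntln (0.996), then Ust and Olfml2b, Nck2 to BC039093 (0.999), then Tpm3 and Antxr2, and Csf1 to Cflar (0.999), then Otud7b and Fmnl2.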

How the data were processed

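The authors hybridised Cy3-labelled RNA of 8 samples with a Cy5-labelled reference pool, with no dye swap, and deposited 16 scanner files (2 repeat scans per array, Agilent Feature Extraction 9.5.1.1) that hold spot intensity and local background in both channels, not normalized between arrays. The array design number in the headers is not that of the methods. The authors also deposited log10 values for 25164 probes. These followed the processed log ratios of the scanner files with a slope of 1.00, and the level and centring of each probe stay unknown. The medians of its columns were 2.31, 2.31, 2.31 and 2.33 for the V-S+, V+S+, V-S- or V+S- column of clone 5.1 and 2.32, 2.32, 2.32 and 2.34 for clone 16.1.

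With limma 3.58.1 (R 4.3.3), mean signals were corrected by normexp (offset 50), control spots were dropped and loess was applied to each scan. Outlier spots (a median of 4 per file) were left out. The 2 scans of an array, which differed by an SD of 0.06 to 0.08 on the log2 scale, were averaged and counted as 1 replicate. A probe was kept if Cy3 was well above background in every file of some fraction (29495 of 42006 probes), and the 29484 of these with a value in every sample were tested. Cy3 signals were a median of 2.36 to 2.87 times the background per sample, 28316 to 29671 probes were well above background, and no spot was saturated. Precision is limited by the number of arrays.

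A single model over the 8 samples had fraction as its term (lmFit and eBayes), with Benjamini-Hochberg adjustment over all tested probes and calls at an FDR of 0.05 and more than 1.5-fold (no fold threshold for the interaction and the overall test). Clone numbers pair the samples, because all fractions of a number come from 1 cell line. Over probes, a clone's deviations from the means of its fractions correlated between fractions with r of 0.588 to 0.811 over 6 pairs of fractions. Clone, and with it slide, was therefore also fitted as a block. Scripts were tested on simulated data.

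Names came from the study's list of probes, of which 1998 of 2169 rows were used here. Named with values were all 5 members, for each pathway list the 3 genes with the largest difference between V+S- and V-S-, and every ligand of EGFR, MET and RON that has a probe. Nrg1, other genes in lists and the patterns of Ghr and Dok2 in V+S+ were chosen after their values were seen. For likeness, the 3 listed probes with the highest r over the 8 samples were named. The members and lists were chosen with earlier results of these data known. Alternatives were clone as a block, median centring, the scanner's processed signals, uncorrected signals, Cy3 alone, 2 other filters, a single scan, the authors' log10 values, a fit of only the 2 fractions compared, an unmoderated test, calls by FDR alone, and fits without each sample. Counts for the lists with the block were added after seeing the data.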

Additional observations from a re-analysis of the deposited data

How the results depend on the processing

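All 5 members had positive log2 differences in V+S- against V-S- and against V-S+ under every alternative run, while the calls did not hold under all of them. Of the 5 called in V+S- against V-S-, 1 (Met) was called with the authors' log10 values (650 probes of the array) and 0 in the unmoderated test (347 probes, with 9357 at an unadjusted p below 0.05), where 2296 probes were called in the fit as reported, and 0 to 5 when samples were left out in turn. Of the 5 called against V-S+, 3 were called with signals as the scanner software processed them (Met, Jak2 and Csf1), 0 with the authors' log10 values (395 probes called, 7096 at an unadjusted p below 0.05), 0 in the unmoderated test (335 called, 9120) and 0 to 5 when samples were left out. Nck2 alone lost its call against V-S- with those processed signals (adjusted p = 0.0622) and with no filter on dim probes (0.0512), and against V-S+ with median centring (0.0608). With clone as a replicate block the count was 3 in V+S+ against V-S+, 2 in V+S- against V+S+, 2 for the interaction and 5 in the overall test, and the block changed no other count of members. The overall test, with 3 members called, gave 0 with those processed signals (85 probes called, 8950 at an unadjusted p below 0.05), 0 with the authors' values (0 called, 5859), 0 in its unmoderated version (0 called, 7270) and 0 to 5 when samples were left out. The clone difference of 1 member was called in 0 members by the unmoderated test (9256) and in 0 or 1 when samples were left out. The difference of Nck2 between V-S- and V-S+, 0.03 (0.04 in clone 5.1 and 0.01 in clone 16.1), was -0.19 with median centring and -0.0085 with the second scan alone. When samples were left out it lay between -0.11 and 0.17, below 0 without V-S+ of clone 5.1 (-0.11) or V-S- of clone 16.1 (-0.0998). Those fits set a sample of a single clone against the mean of both, so that the gap between clones enters the difference. Median centring moved the median of all probes from 0.01 to 0.13 in V+S- against V-S- and from 0.00 to -0.12 in V-S- against V-S+. The causes were not tested, except that leaving out a sample removes a replicate, and the lone sample left in a fraction is then assumed to vary like the other fractions. With 2 samples per fraction, a missed threshold does not show equal levels.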
